A study of Homo sapiens with 8 samples.

Results

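The transcriptome of undifferentiated MEL1 cells, a human embryonic stem cell (ESC) line, was compared between exposure to TCDD and to its solvent. The comparison used 4 of the 8 RNA sequencing libraries of the study, chosen by title: 2 libraries of cells given 2 nM TCDD (2,3,7,8-tetrachlorodibenzodioxin) dissolved in DMSO, and 2 of cells given an equal volume of DMSO, which stayed below 0.1% in all cultures. All 4 came from cells in E8, a defined stem cell medium, and were taken at the time labelled D1, just before cardiac differentiation. The other 4 libraries, labelled D2, came from the same 2 treatments after 2 days in a differentiation medium with 5 µM CHIR99021, a GSK3 inhibitor. They enter here through the shared estimate of the spread and as a later readout. All libraries came from 1 cell line. Neither the duration of exposure nor the origin of the replicates from separate cultures is stated in the labels, so p-values measure only the spread between these libraries, which may be technical.

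TCDD is a dioxin that binds tightly to AHR, the aryl hydrocarbon receptor, which is a transcription factor of the bHLH-PAS family. Bound AHR moves to the nucleus, pairs with ARNT and binds DNA at sites with the core GCGTG, from which it raises detoxifying cytochromes P450 of the CYP1 family and its own inhibitors, the repressor AHRR and the ADP-ribosyltransferase TIPARP. Human ESCs keep pluripotency through POU5F1, SOX2 and NANOG and express many long non-coding RNAs (lncRNAs), transcripts without a protein product that often lie beside or across the genes of developmental regulators.

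The D1 libraries held 38511052 and 37793880 counts with DMSO and 41607876 and 34873055 with TCDD, and levels are given as CPM, edgeR's counts relative to the scaled library total. CPM is not corrected for gene length, so levels are compared between libraries and not between genes. Of 27317 gene symbols, 17268 passed the filter on low counts and were tested, and a gene was called where the Benjamini-Hochberg adjusted p of edgeR's quasi-likelihood test was under 0.05. All 20 ESC markers averaged at least 1 CPM, with POU5F1 at 455 and 447 CPM with DMSO and 447 and 452 CPM with TCDD. Of the markers of other cell types, 13 of 14 endoderm, 15 of 17 trophoblast and amnion, 9 of 13 streak and mesoderm, 7 of 11 cardiomyocyte, 6 of 11 neural crest, 6 of 10 germ cell, 8 of 15 neural progenitor and 4 of 13 fibroblast markers averaged under 1 CPM. Summed over each list, they stood at 5.6 and 3.58 CPM with DMSO and 4.08 and 3.5 with TCDD for endoderm, 21.1 and 22 against 25.1 and 27 for trophoblast and amnion, 13 and 14.9 against 16.4 and 16.4 for streak and mesoderm, and 719 and 702 against 610 and 642 for neural progenitors, most of the last from NES. The fibroblast list summed to 1271 and 1221 CPM with DMSO and 1304 and 1221 with TCDD, most of it from THY1, COL1A1 and FBLN1, with LUM at 0 in all 4 libraries and DCN and COL3A1 at or near 0.

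TCDD changed 197 of the 17268 genes at D1 (1.14%), 127 higher (0.735%) and 70 lower (0.405%). The responses fell into a few large rises and many small shifts. Of the genes that rose, 26 did so by at least 2-fold (0.151% of the genes tested) and 82 by less than 1.5-fold, with a median log2 fold change of 0.41. Of those that fell, 3 did so by at least 2-fold (0.0174%), namely ANKRD1, LEFTY1 and AADACL3, and 61 by less than 1.5-fold, with a median of -0.32. AADACL3 had a log2 fold change of -1.02 and lost its call in 3 of the 8 leave-one-out fits, each without 1 library, in DESeq2 (adjusted p = 0.3) and in the edgeR fit of the D1 libraries alone (0.109), and without DMSO replicate 1 its log2 fold change was -0.61 (edgeR adjusted p = 0.717). The balance of directions turned on single libraries, since 66 genes were higher and 12 lower without DMSO replicate 1, and 90 higher and 156 lower without TCDD replicate 1. The 26 larger rises were steadier, with 21 to 25 genes called higher by at least 2-fold in the 8 leave-one-out fits. Of all calls, 48 of 127 rises and 11 of 70 falls held in all 8.

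**Figure D1:**
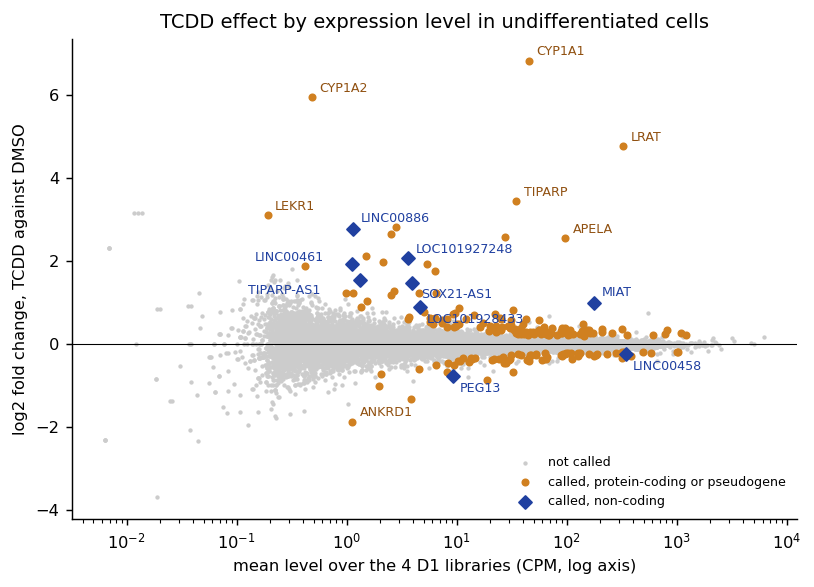
Each point is a tested gene, with its mean level over the 4 D1 libraries (CPM, log axis) on the x axis and its log2 fold change with TCDD on the y axis. Grey points were not called, orange circles are called protein-coding genes or pseudogenes, and blue diamonds are the 9 called non-coding genes, of which 7 lie above 0 and 2 below it. Called changes below 1 CPM all lie above 0.

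Called genes, like the genes tested, were mostly protein-coding. Of 15046 tested protein-coding genes, 120 rose and 67 fell (1.24%). Of 1668 tested non-coding genes, 7 rose and 2 fell, which is 0.54% against 1.14% of all genes tested, and 921 of the 1668 had a positive log2 fold change (median 0.03, against 0.00 over all genes). Of the 1668, 846 averaged under 1 CPM, where 0.147% of all genes were called. At 1 to 3 CPM, 3 of 403 non-coding genes were called, against 0.838% of all genes at that level. At 3 to 10 CPM the values were 4 of 281 and 1.22%. Of 492 pseudogenes, 1 fell, ZNF702P, at 11.8 and 11.6 CPM with DMSO and 8.68 and 9.03 CPM with TCDD (log2 fold change -0.40 ± 0.09, edgeR adjusted p = 0.0167). Its call was lost without either DMSO library or without TCDD replicate 1 (edgeR adjusted p = 0.0664 to 0.199). The types come from RefSeq on GRCh38.p14, matched by symbol.

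All 9 called non-coding genes were lncRNAs, of 1437 lncRNAs tested. The largest rise was in LINC00886, an intergenic lncRNA beside TIPARP. It stood at 0.254 and 0.33 CPM with DMSO and 2.12 and 1.9 CPM with TCDD, with a fitted log2 change of 2.78 ± 0.28 (± SE here and below, edgeR adjusted p = 2.91e-06). Both TCDD libraries were above both DMSO libraries, where the transcript had 10 and 13 counts. Such separation of the groups, here and below, is common with 2 libraries each. Of all genes tested, 18.9% were higher and 18.6% lower with TCDD without overlap. The span of LINC00886 overlaps that of the pseudogene PA2G4P4, described below. TIPARP-AS1, which runs antisense to TIPARP, rose from 0.761 and 0.585 to 1.91 and 2.04 CPM (1.55 ± 0.22, edgeR adjusted p = 0.000285). Its span overlaps that of TIPARP and the strand setting of the counting is not given, so reads of the pair cannot be told apart.

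A pair of lncRNAs beside SOX21 rose with it. LOC101927248, named LINC00391 in RefSeq, was at 1.19 and 1.6 CPM with DMSO and 5.04 and 6.72 CPM with TCDD, with a fitted log2 change of 2.06 ± 0.20 (edgeR adjusted p = 3.02e-06). SOX21-AS1, named as antisense to SOX21 but with a span that does not overlap it, was at 2.36 and 1.8 CPM with DMSO. With TCDD it was at 5.23 and 6.28 CPM (1.46 ± 0.16, edgeR adjusted p = 1.58e-05). SOX21 itself, an HMG-box factor that counteracts SOX2 target activation in progenitors, was at 2.56 and 3.25 CPM with DMSO and 8.38 and 11.4 CPM with TCDD (1.76 ± 0.15, edgeR adjusted p = 1.03e-06). For each of the 3 transcripts, both TCDD libraries exceeded both DMSO libraries by more than the gap within either pair.

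LINC00461, which RefSeq lists as the host transcript of the microRNA gene MIR9-2, rose from 0.532 and 0.407 to 1.84 and 1.71 CPM, with a fitted log2 change of 1.91 ± 0.30 (edgeR adjusted p = 0.000992). The tables listed MIR9-2 itself at 0 counts in every library. LOC101928433, antisense to ATXN1 and named ATXN1-AS1 in RefSeq, rose from 2.89 and 3.58 to 6.09 and 5.89 CPM (0.89 ± 0.13, edgeR adjusted p = 0.000428). Its partner ATXN1, the spinocerebellar ataxia gene whose protein acts as a transcriptional corepressor, also rose, from 5.7 and 6.15 to 8.59 and 8.97 CPM (0.57 ± 0.10, edgeR adjusted p = 0.00351), a call lost without DMSO replicate 1 (edgeR adjusted p = 0.105). Their spans overlap, and reads of the pair cannot be told apart either.

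MIAT, an abundant nuclear lncRNA of neural and cardiac tissue, was at 116 and 123 CPM with DMSO and 222 and 250.2 CPM with TCDD. The groups did not overlap and the fitted log2 change was 0.98 ± 0.13 (edgeR adjusted p = 0.0389). Among other fits, the call was lost without any 1 of the 4 D1 libraries (edgeR adjusted p = 0.056 to 0.146) and with no composition scaling (0.0556). MIATNB, whose span overlaps that of MIAT, was at 1.34 and 1.4 CPM with DMSO and 1.24 and 1.4 CPM with TCDD (edgeR adjusted p = 0.966).

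The 2 non-coding falls were in PEG13, an imprinted lncRNA within TRAPPC9, and LINC00458, an lncRNA that is abundant in pluripotent cells. PEG13 was at 11.7 and 11.4 CPM with DMSO and 6.56 and 6.96 CPM with TCDD and fell by 0.78 ± 0.10 on the log2 scale (edgeR adjusted p = 6.11e-05). The overlapping TRAPPC9 was at 34.9 and 32.7 CPM with DMSO and 32.5 and 29.98 CPM with TCDD (edgeR adjusted p = 0.569). LINC00458 was at 389 and 355 CPM with DMSO and 318 and 309.9 CPM with TCDD and fell by 0.24 ± 0.05 (edgeR adjusted p = 0.00768), a call lost without DMSO replicate 1 (edgeR adjusted p = 0.322). Of the 9 non-coding calls, 7 held in all 8 leave-one-out fits, the exceptions being MIAT and LINC00458.

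**Figure D2:**
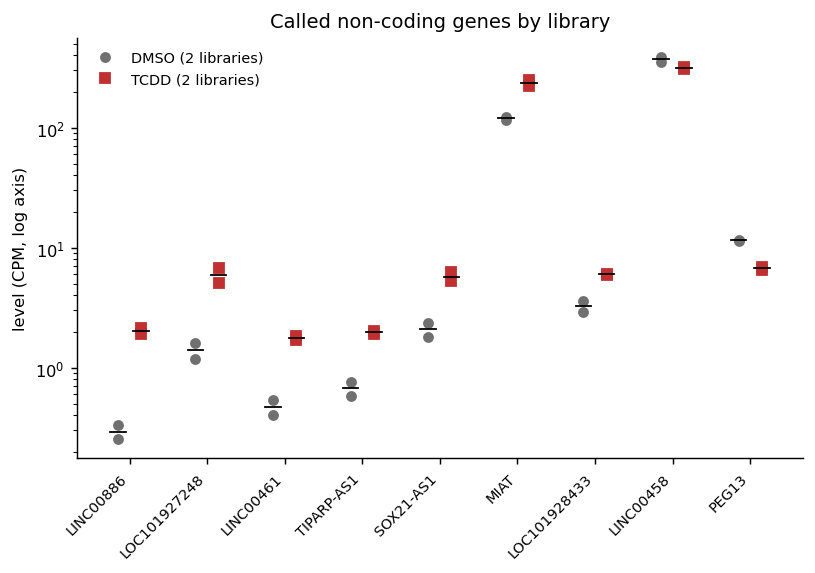
Levels (CPM, log axis) of the 9 called non-coding genes in each D1 library, with circles for the 2 DMSO libraries, squares for the 2 TCDD libraries and short lines for the group means. The squares lie above the circles for the first 7 genes and below them for LINC00458 and PEG13.

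Calls by class of non-coding gene are set beside the 1.14% of all genes tested. Of 493 tested transcripts with an antisense name, 2 rose (0.406%), SOX21-AS1 and TIPARP-AS1. Of 263 LINC transcripts, LINC00886 and LINC00461 rose and LINC00458 fell (1.14%, the share of all genes). None of 161 small nucleolar RNA genes, 77 microRNA genes, 22 microRNA host genes or 22 small nucleolar RNA host genes was called by edgeR. In classes of 22 to 77 genes, no call is unremarkable at the share of all genes. Of 1915 listed microRNA genes, 77 had enough counts to be tested. CYP1B1-AS1, beside CYP1B1, missed the threshold at 0.101 and 0.178 CPM with DMSO and 0.513 and 0.468 CPM with TCDD (log2 fold change 1.79 ± 0.44, edgeR adjusted p = 0.0513).

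Genes with a mean under 1 CPM made up 2712 of those tested, and 4 of them rose and none fell (0.147%). CYP1A2, a hepatic P450 next to CYP1A1, had 1 and 0 counts with DMSO and 51 and 26 with TCDD, a ratio of 76.8 (exact 95% interval 13.4 to 3073, counting error only; edgeR adjusted p = 4.61e-05). CYP1A1 and CYP1A2 are similar in sequence, and the labels do not say how reads matching both were treated. LEKR1, the second tested gene after LINC00886 in chromosome order, had 1 and 2 counts with DMSO and 20 and 8 with TCDD, a ratio of 9.31 (2.88 to 47.9; edgeR adjusted p = 0.0217). That call was lost without either DMSO library or without TCDD replicate 1 (edgeR adjusted p = 0.0946 to 0.349).

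LHX1, a LIM homeobox factor of the organiser and early mesoderm, had 5 and 9 counts with DMSO and 26 and 26 with TCDD (log2 fold change 1.87 ± 0.41, edgeR adjusted p = 0.0215). DMTN, which encodes the actin-bundling protein dematin, had 18 and 28 counts with DMSO and 56 and 53 with TCDD (1.23 ± 0.26, edgeR adjusted p = 0.0174). LHX1 lost its call without either DMSO library or without TCDD replicate 2 (edgeR adjusted p = 0.0529 to 0.381), and DMTN without DMSO replicate 1 or TCDD replicate 2 (0.0962 to 0.382). In each of these genes both TCDD libraries exceeded both DMSO libraries.

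Level set which changes could be called. Under 0.5 CPM the median standard error of a log2 fold change was 0.43 and the smallest called change was 1.87, while above 100 CPM the median error was 0.05 and the smallest called change 0.18. Of the 1668 tested non-coding genes, 494 lay under 0.5 CPM and none of those was called by edgeR. Among the 10049 symbols too low to test, PRG4, which encodes the joint lubricant lubricin, was the only one with no count in one group and at least 10 in the other. It had 0 and 0 counts with DMSO and 5 and 6 with TCDD, which is at least 3.66-fold higher when the DMSO group is set to a floor of 3 counts in all, while the exact 95% interval of the ratio begins at 2.5 (counting error only). A fit with no filter beyond 1 count called 480 genes, 229 higher and 251 lower, and of the 283 it added only PRG4 lay below the filter of the reported fit.

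Several raised genes stood next to each other on their chromosomes. In RefSeq order on GRCh38.p14, counting tested genes only, the 26 genes raised by at least 2-fold had 41 immediate neighbours outside their own set, and 5 of these rose (12.2%, against 0.735% of all genes tested). The 70 lowered genes had 139 immediate neighbours in all, including those in their own set. Of these 1 rose (0.719%) and 2 fell (1.44%, against 0.405% of all genes tested). These counts were chosen after seeing the values. At the TIPARP locus, SSR3, TIPARP-AS1, TIPARP, LINC00886 and LEKR1 rose. The pseudogene PA2G4P4, next in order after LINC00886, did not pass (log2 fold change 0.36 ± 0.24, edgeR adjusted p = 0.67). Its span overlaps that of LINC00886, so reads of that pair cannot be told apart. TIPARP rose from 6.01 and 5.77 to 61.9 and 65.5 CPM. SSR3, a subunit of the translocon-associated protein complex, rose from 187 and 189.9 to 219 and 245 CPM (0.30 ± 0.05, edgeR adjusted p = 0.00235), a call lost without DMSO replicate 1 (edgeR adjusted p = 0.0788).

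At the CYP1A locus, CYP1A1 rose from 0.761 and 0.813 to 101 and 77.7 CPM and the next gene after CYP1A2, CSK, rose as well. CSK, a kinase that restrains SRC family kinases, stood at 53.4 and 52.1 CPM with DMSO and 73.7 and 66.3 CPM with TCDD, with a fitted log2 change of 0.41 ± 0.05 (edgeR adjusted p = 0.000118) that held in all 8 leave-one-out fits. ULK3, an autophagy-related kinase 2 places further on, was at 36.5 and 38.5 CPM with DMSO and 46.5 and 43.7 CPM with TCDD (0.27 ± 0.06, edgeR adjusted p = 0.0166), a call lost without replicate 1 of DMSO or of TCDD (edgeR adjusted p = 0.115 to 0.349).

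At the LRAT locus, LRAT, which esterifies retinol for storage, rose from 24.4 and 21.9 to 629.9 and 631 CPM (log2 fold change 4.77 ± 0.07, edgeR adjusted p = 3.68e-18). Its neighbour RBM46, an RNA-binding protein of germ cells, was at 9.25 and 10.04 CPM with DMSO and 14.4 and 14.9 CPM with TCDD (0.60 ± 0.09, edgeR adjusted p = 0.00038), and that call held in all 8 fits. MYADML2, a myeloid-associated differentiation marker-like gene, was at 0.532 and 0.864 CPM with DMSO and 4.78 and 5.04 CPM with TCDD (2.81 ± 0.20, edgeR adjusted p = 2.39e-08). Its neighbour PYCR1, a proline synthesis enzyme, was at 117 and 124 CPM with DMSO and 144 and 140.0 CPM with TCDD (0.24 ± 0.05, edgeR adjusted p = 0.0197), a call lost without replicate 1 of DMSO or of TCDD (edgeR adjusted p = 0.0842 to 0.431). AATF, beside LHX1, rose by 0.21 ± 0.05 and lost its call in 6 of the 8 fits (edgeR adjusted p = 0.052 to 0.491). At 1 locus the neighbours went in opposite directions: PCDH8 rose while LINC00458, the next tested gene, fell.

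**Figure D3:**
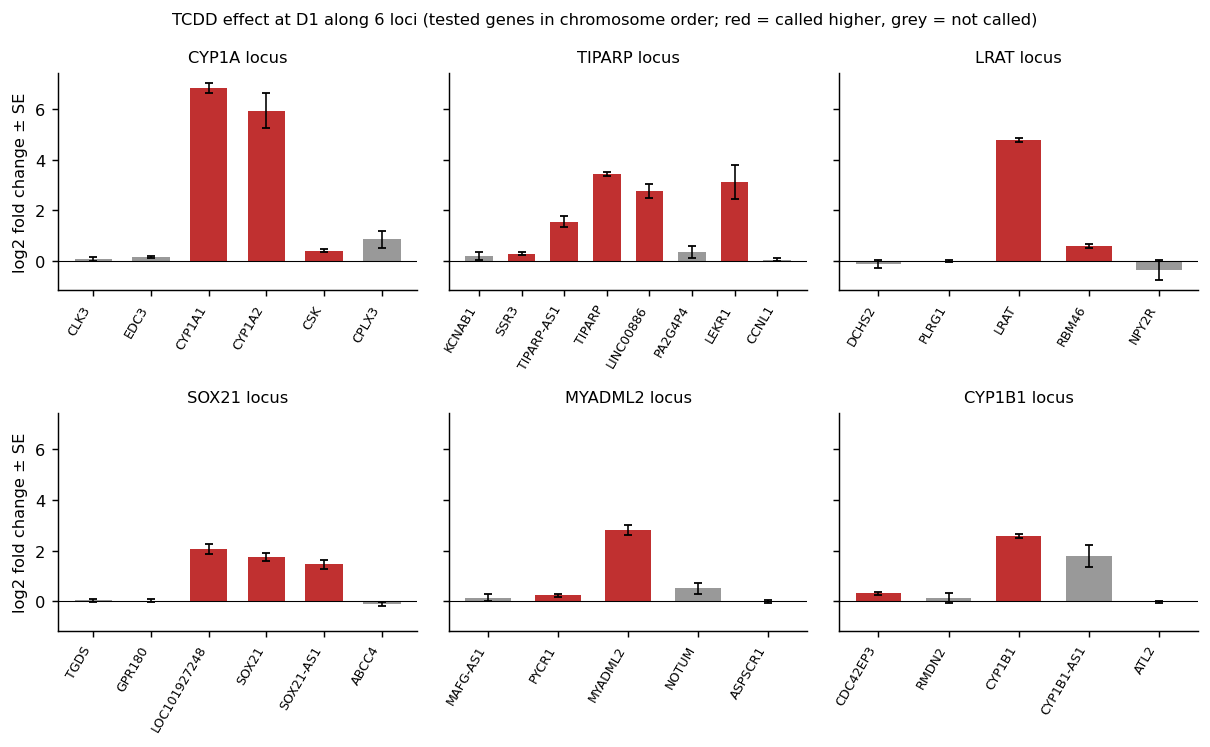
Log2 fold changes with TCDD at D1, with standard errors, of tested genes in chromosome order at 6 loci. Red bars were called higher and grey bars were not called. CYP1A1, LRAT and TIPARP stand highest, and called rises of neighbours, such as CSK (0.41) and RBM46 (0.60), are smaller.

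The promoters of the 7 genes with the largest called rises are printed, of which 5 lie at the TIPARP and CYP1A loci. Each line gives the 250 bases before the start site, 5′ to 3′ on the gene's strand, from RefSeq on GRCh38.p14, with every GCGTG, or its reverse complement CACGC, in capitals. The windows are chr15:74725529-74725778 (minus strand) for CYP1A1, chr15:74748595-74748844 (plus strand) for CYP1A2, chr4:154743750-154743999 (plus strand) for LRAT, chr3:156674340-156674589 (plus strand) for TIPARP, chr3:156826103-156826352 (plus strand) for LEKR1, chr17:81947234-81947483 (minus strand) for MYADML2 and chr3:156817063-156817312 (minus strand) for LINC00886.
CYP1A1: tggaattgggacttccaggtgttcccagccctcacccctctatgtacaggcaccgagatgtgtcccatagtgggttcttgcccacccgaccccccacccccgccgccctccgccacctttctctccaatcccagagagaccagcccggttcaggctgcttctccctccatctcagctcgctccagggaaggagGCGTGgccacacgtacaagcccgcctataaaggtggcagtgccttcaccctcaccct
CYP1A2: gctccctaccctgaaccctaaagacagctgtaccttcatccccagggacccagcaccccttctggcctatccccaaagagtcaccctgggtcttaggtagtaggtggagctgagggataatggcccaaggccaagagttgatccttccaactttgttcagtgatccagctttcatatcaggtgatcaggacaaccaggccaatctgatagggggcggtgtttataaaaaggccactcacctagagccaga
LRAT: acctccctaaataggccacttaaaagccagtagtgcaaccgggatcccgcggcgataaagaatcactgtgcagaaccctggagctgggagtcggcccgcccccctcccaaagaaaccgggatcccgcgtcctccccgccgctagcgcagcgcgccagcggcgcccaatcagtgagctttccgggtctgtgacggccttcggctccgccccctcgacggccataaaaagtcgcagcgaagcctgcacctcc
TIPARP: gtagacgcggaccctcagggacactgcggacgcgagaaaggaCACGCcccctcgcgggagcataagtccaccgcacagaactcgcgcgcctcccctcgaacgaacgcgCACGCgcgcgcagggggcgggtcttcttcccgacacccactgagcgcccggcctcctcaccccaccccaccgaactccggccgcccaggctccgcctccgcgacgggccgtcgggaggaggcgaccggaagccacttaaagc
LEKR1: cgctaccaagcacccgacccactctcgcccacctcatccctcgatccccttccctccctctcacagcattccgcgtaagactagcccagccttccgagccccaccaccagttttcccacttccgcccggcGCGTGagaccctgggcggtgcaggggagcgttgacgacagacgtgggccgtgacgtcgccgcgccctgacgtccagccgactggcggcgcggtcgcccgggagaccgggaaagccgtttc
MYADML2: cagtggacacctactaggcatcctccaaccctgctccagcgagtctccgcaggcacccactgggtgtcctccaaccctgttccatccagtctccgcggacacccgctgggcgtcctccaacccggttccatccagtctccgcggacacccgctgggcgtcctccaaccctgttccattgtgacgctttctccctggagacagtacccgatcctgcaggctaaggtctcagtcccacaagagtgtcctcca
LINC00886: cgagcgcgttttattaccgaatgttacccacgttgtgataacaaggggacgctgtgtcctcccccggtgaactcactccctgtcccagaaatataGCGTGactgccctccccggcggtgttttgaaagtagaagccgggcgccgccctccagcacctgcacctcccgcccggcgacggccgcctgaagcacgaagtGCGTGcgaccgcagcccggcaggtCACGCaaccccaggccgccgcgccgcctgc

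The printed windows held the motif once for CYP1A1 and LEKR1, 2 times for TIPARP, 3 times for LINC00886 and not at all for CYP1A2, LRAT and MYADML2. Both strands were searched, and no other motif. Over windows of 300 bases, which add the 50 bases after the start, 10 of 21 genes raised by at least 2-fold with a promoter in the table held the motif (47.6%), and 43 of 78 raised by less (55.1%). The share was 25 of 53 (47.2%) among lowered genes, 49% of the 13286 tested genes with a promoter and 36.3% of all 27305 promoters. The shares of raised and lowered genes were thus near that of the tested genes. Bases outside these windows were not searched, and CYP1B1 had no promoter in the table, so sites further away are not covered. A match is a run of letters and not a measured site.

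Several of the largest rises were in xenobiotic and retinoid genes. Of 35 tested cytochromes P450, 5 rose (14.3%, against 0.735% of all genes tested) and none fell: CYP1A1, CYP1A2, CYP1B1, CYP26A1 and CYP11A1. CYP1B1 went from 8.01 and 7.83 to 47.4 and 47.2 CPM (log2 fold change 2.58 ± 0.07, edgeR adjusted p = 8.2e-17). CYP26A1, which degrades retinoic acid, went from 4.79 and 4.5 to 6.79 and 6.69 CPM (0.54 ± 0.11, edgeR adjusted p = 0.0119), and CYP11A1, which begins steroid synthesis from cholesterol, from 8.52 and 8.39 to 12.5 and 11 CPM (0.48 ± 0.09, edgeR adjusted p = 0.00768). CYP26A1 and CYP11A1 both lost their calls without either DMSO library or without TCDD replicate 1 (edgeR adjusted p = 0.0627 to 0.105). Of 13 tested AHR targets 8 rose (61.5%), and of 27 retinoid genes LRAT and CYP26A1 did (7.41%). The AHR target list was drawn up with earlier results of these libraries known.

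Of 38 ABC transporters, 1 rose (2.63%, against 1.14% of all genes tested). This was ABCG2, an exporter of drugs and urate, from 11.6 and 10.4 to 18.9 and 17 CPM (0.71 ± 0.08, edgeR adjusted p = 3.24e-05). None of the 14 genes of the AHR complex was called, with AHR at 15.3 and 16 CPM with DMSO and 11.8 and 13.6 CPM with TCDD (edgeR adjusted p = 0.187), and none of 37 aldehyde, retinol or aldo-keto dehydrogenase genes. The 25 targets of NRF2, the antioxidant regulator, and the 9 metallothioneins held no call either, with list medians of 0.01 and 0.12. NQO1, a quinone reductase that NRF2 also controls, and NFE2L2, which encodes NRF2, were placed on the AHR target list and both rose. NQO1 rose from 45.1 and 43 to 52.9 and 54.3 CPM (0.28 ± 0.05, edgeR adjusted p = 0.00751), a call lost without DMSO replicate 2 (edgeR adjusted p = 0.106). NFE2L2 rose from 42.8 and 40.7 to 49.4 and 51.7 CPM (0.28 ± 0.06, edgeR adjusted p = 0.012), a call lost without either DMSO library or without TCDD replicate 2 (edgeR adjusted p = 0.0683 to 0.139).

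Genes of glycolysis and the hypoxia response rose as small shifts. Of 39 tested, 10 rose (25.6%, against 0.735% of all genes tested) and none fell. A positive log2 fold change was found in 38 (median 0.15, against 0.00 over all genes). DDIT4, an inhibitor of mTOR signalling, rose from 85.2 and 84.2 to 108 and 110.2 CPM (0.37 ± 0.05, edgeR adjusted p = 0.000374). EGLN1, the oxygen-sensing prolyl hydroxylase, rose from 34.8 and 31.4 to 45.3 and 41.3 CPM (0.39 ± 0.06, edgeR adjusted p = 0.00112). LDHA, lactate dehydrogenase, rose from 713 and 726 to 867 and 827 CPM (0.23 ± 0.04, edgeR adjusted p = 0.00574). The list summed to 14846 and 14634 CPM with DMSO and 17239 and 15870 CPM with TCDD, so both TCDD libraries were above both DMSO libraries.

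The other 7 members that rose were BNIP3, P4HA1, ADM, PDK1, PGK1, KDM3A and SLC2A3, by 0.22 (SLC2A3) to 0.45 (ADM). Of the 10, only DDIT4 kept its call in all 8 fits. Without DMSO replicate 1, BNIP3, LDHA, ADM, P4HA1, PGK1 and KDM3A lost theirs. Without DMSO replicate 2, EGLN1, P4HA1, PDK1, PGK1, KDM3A and SLC2A3 did. Without TCDD replicate 1, ADM, PDK1, PGK1, KDM3A and SLC2A3 did, and ADM also without TCDD replicate 2. SLC2A3 lost its call in 5 of the 8 fits. SLC16A1, the lactate and pyruvate transporter MCT1, which was not on that list, rose from 709.5 and 726 to 878 and 941 CPM (0.34 ± 0.04, edgeR adjusted p = 8.64e-05).

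Among developmental regulators, 24 tested homeobox factors of the eye, the forebrain and the LIM and sine oculis families held 3 rises and 1 fall. That share was 16.7%, against 1.14% of all genes tested. SIX6, an eye-field and pituitary factor, rose from 0.913 and 0.483 to 5.27 and 3.39 CPM (2.64 ± 0.29, edgeR adjusted p = 0.000196). LHX4, a LIM factor of pituitary and motor neurons, rose from 0.634 and 0.483 to 2.85 and 1.98 CPM (2.12 ± 0.24, edgeR adjusted p = 1.23e-05), and LHX1 is described above. PROX1, a factor of lens, liver and lymphatic fate, fell from 2.71 and 2.39 to 1.42 and 1.68 CPM, by 0.73 ± 0.18 (edgeR adjusted p = 0.0451), and lost its call without any 1 of the D1 libraries (edgeR adjusted p = 0.0759 to 0.487). Of 50 other homeobox factors, 1 fell, IRX2 (log2 fold change -0.37), with its call lost without any 1 of the D1 libraries (edgeR adjusted p = 0.0614 to 0.13). Of the neural progenitor markers, 9 were tested and NES fell (-0.21), while 6 of the 9 had a positive log2 fold change. NES lost its call without either DMSO library or without TCDD replicate 1.

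LMO3, a LIM-only cofactor, rose from 3.17 and 2.24 to 7.09 and 5.56 CPM (1.23 ± 0.16, edgeR adjusted p = 6.96e-05). HES1, a repressor downstream of Notch, rose from 20.3 and 18.5 to 29.9 and 29.4 CPM (0.61 ± 0.07, edgeR adjusted p = 2.27e-05). HES1 was chosen after its values were seen. Of 15 SOX genes, SOX21 rose and SOX4 fell (-0.18, edgeR adjusted p = 0.0479), the latter a call lost in 7 of the 8 fits. Among 602 zinc finger genes, 1 was called, the pseudogene ZNF702P. Of 20 ESC markers, 2 fell (10%). PRDM14, a repressor that guards pluripotency, was at 52 and 52.1 CPM with DMSO and 44.4 and 41.5 CPM with TCDD, a fall of 0.28 (edgeR adjusted p = 0.0127), and the telomere protein gene TERF1 was at 346 and 334 CPM with DMSO and 284 and 308 CPM with TCDD, a fall of 0.20 (0.0419). PRDM14 lost its call without either DMSO library or without TCDD replicate 2 (edgeR adjusted p = 0.0803 to 0.146), and TERF1 in 7 of the 8 fits and in the fit of the D1 libraries alone (0.14).

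Cilium and adhesion genes changed singly. Of all genes tested 1.14% were called, against 4.44% of the motile cilia list, 8.33% of protocadherins outside the gene clusters and 3.1% of cadherins. Of 45 tested genes of motile cilia and axonemal dyneins, 2 rose: DNAH5, an outer-arm dynein heavy chain, from 2.38 and 2.06 to 9.08 and 7.76 CPM (1.93 ± 0.14, edgeR adjusted p = 4.54e-08), and FOXJ1, the regulator of motile ciliogenesis, from 16.4 and 19.3 to 23.1 and 23.8 CPM (0.39 ± 0.08, edgeR adjusted p = 0.0186). The list median was -0.01, and FOXJ1 lost its call without DMSO replicate 1 or either TCDD library (edgeR adjusted p = 0.0539 to 0.481). PCDH8, the only one called of 12 protocadherins outside the gene clusters, rose from 0.837 and 0.89 to 3.92 and 2.84 CPM (1.98 ± 0.22, edgeR adjusted p = 1.17e-05), and none of 57 clustered protocadherins was called. CDH2, N-cadherin and 1 of 32 cadherins, fell from 33.4 and 31.3 to 23.5 and 24.1 CPM, by 0.45 ± 0.07 (edgeR adjusted p = 0.000548), in all 8 fits.

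Of 79 collagens, laminins and integrins, COL23A1, ITGA6 and COL1A1 rose and ITGB1 fell (5.06%, against 1.14% of all genes tested). COL23A1 went from 20.2 and 20.3 to 31.6 and 29.8 CPM (0.60 ± 0.07, edgeR adjusted p = 3.06e-05). ITGA6, an integrin laminin receptor subunit and stem cell surface marker, went from 288 and 269.7 to 371 and 350.2 CPM (0.37 ± 0.05, edgeR adjusted p = 6.48e-05). COL1A1 (0.20) and ITGB1 (-0.20) each lost their call in 4 of the 8 fits.

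Ligands and receptors changed in both directions. Of 73 tested neuropeptides, hormones and their receptors, 6 rose and 3 fell (12.3%, against 1.14% of all genes tested). APELA, a peptide ligand of the apelin receptor made by ESCs, was at 23.8 and 32.6 CPM with DMSO and 140.1 and 191 CPM with TCDD (2.55 ± 0.22, edgeR adjusted p = 0.0254). Its call was lost in the fit of the D1 libraries alone (edgeR adjusted p = 0.318) and without any 1 D2 library (0.0977 to 0.0987). VIPR1, a receptor for vasoactive intestinal peptide, rose from 6.79 and 8.11 to 14.7 and 12.6 CPM (0.87 ± 0.10, edgeR adjusted p = 1.93e-05). GAL, the neuropeptide galanin, rose from 84.7 and 83.5 to 113 and 106 CPM (0.38 ± 0.05, edgeR adjusted p = 7.95e-05), and both calls held in all 8 fits.

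EDN1, the vasoconstrictor endothelin, rose from 0.786 and 1.19 to 1.98 and 2.12 CPM (1.05 ± 0.24, edgeR adjusted p = 0.0268). The call of EDN1 was lost without DMSO replicate 1 or either TCDD library, and in DESeq2 (adjusted p = 0.296). ADM and LGR4, a receptor for R-spondins, made up the 6. LGR4 lost its call without either DMSO library or without TCDD replicate 2. On the other side GRPR, the receptor for gastrin-releasing peptide, fell from 25.1 and 23.4 to 13.7 and 12.6 CPM, by 0.88 ± 0.08 (edgeR adjusted p = 8.06e-07), in all 8 fits. NTS, neurotensin, and NPY1R, a neuropeptide Y receptor, fell by 0.36 and 0.36. NTS lost its call without either DMSO library or without TCDD replicate 1 (edgeR adjusted p = 0.0754 to 0.374), and NPY1R without any 1 of the D1 libraries (0.0841 to 0.382).

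Genes of the BMP and Nodal branches of TGF-beta signalling shifted in both directions. Of 28 BMP genes, ID1 and BMP4 fell and SMAD7 rose (10.7%, against 1.14% of all genes tested). ID1, a BMP target that blocks bHLH factors, fell from 37.2 and 41.8 to 24.6 and 24.7 CPM, by 0.68 ± 0.07 (edgeR adjusted p = 1.97e-06), in all 8 fits. SMAD7, an inhibitory SMAD, rose from 15.1 and 13.3 to 20.5 and 19.7 CPM (0.50 ± 0.09, edgeR adjusted p = 0.0074), and BMP4 fell from 11.9 and 12.7 to 9.1 and 9.47 CPM, by 0.41 ± 0.09 (0.0288). SMAD7 lost its call without DMSO replicate 2 or TCDD replicate 1 (edgeR adjusted p = 0.0616 to 0.0967), and BMP4 without any 1 of the D1 libraries (0.0742 to 0.178).

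Of 27 Nodal and TGF-beta genes, LEFTY1, LEFTY2 and SKIL fell and SMAD3 rose (14.8%, against 1.14% of all genes tested). LEFTY1 was at 6.92 and 4.09 CPM with DMSO and 2.22 and 2.17 CPM with TCDD and LEFTY2, a near-identical copy, at 6.11 and 4.93 CPM with DMSO and 3.41 and 3.83 CPM with TCDD, so their shares of reads are uncertain. LEFTY1 lost its call in 6 of the 8 fits (edgeR adjusted p = 0.0805 to 0.106), LEFTY2 in 2 (0.148 to 0.479), SKIL in 3 (0.0538 to 0.409) and SMAD3 without any 1 of the D1 libraries (0.0782 to 0.381). ANKRD1, a target of YAP in the Hippo pathway, had the largest fall of any called gene, at 2.31 and 1.22 CPM with DMSO and 0.467 and 0.496 CPM with TCDD (-1.87 ± 0.31, edgeR adjusted p = 0.00224), and lost its call without DMSO replicate 1 (edgeR adjusted p = 0.111).

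Of 47 Wnt genes, the antagonist SFRP2 rose, by 0.27 (2.13% called, against 1.14% of all genes tested). Of 32 genes of FGF signalling and ERK feedback, SPRED1 and FGF11 rose, by 0.34 and 0.28 (6.25% called). SPRED1, an inhibitor of RAS signalling, went from 95.4 and 94.6 to 116 and 125 CPM (edgeR adjusted p = 0.00024) and held in all 8 fits. SFRP2 lost its call without DMSO replicate 2 or TCDD replicate 1 (edgeR adjusted p = 0.0897 to 0.157) and FGF11 without DMSO replicate 1 (0.193).

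**Figure D4:**
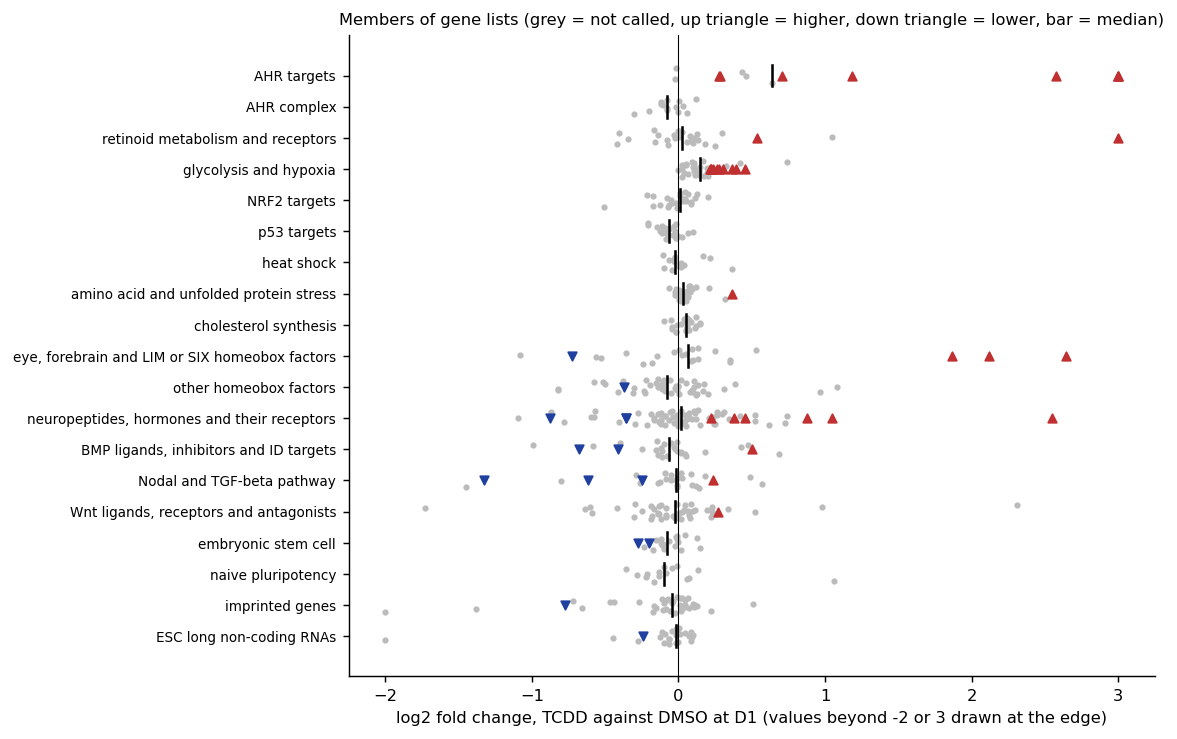
Log2 fold changes with TCDD at D1 of the tested members of 19 gene lists, drawn with values beyond -2 or 3 at the edge. Grey points were not called, up triangles rose, down triangles fell, and black bars are list medians. The AHR target median lies at 0.64 and that of glycolysis and hypoxia at 0.15, and the bars of the other lists lie between -0.10 and 0.07.

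Several broad classes held no edgeR call at D1, namely the 23 p53 targets (3 with a positive log2 fold change, median -0.06), 26 immediate early genes, 15 heat shock genes, 27 interferon response genes, 24 cholesterol synthesis genes, 15 naive pluripotency genes, 194 ion channels, 23 canonical histone genes, 96 cytosolic ribosomal protein genes, 81 mitochondrial ribosomal protein genes and 96 nuclear genes of oxidative phosphorylation. Of all genes tested 1.14% were called, so no call in a list of 15 to 27 genes, or in the short lists above, is unremarkable. Across all genes, 1778 had an unadjusted p under 0.05 (10.3%). Of 28 genes of amino acid and unfolded protein stress, 1 rose, DDIT4. Of 312 solute carriers, SLC16A12, SLC16A1 and SLC2A3 rose and SLC5A3 and SLC24A2 fell (1.6%). SLC24A2 lost its call without any 1 of the D1 libraries and in DESeq2 (adjusted p = 0.2). SLC5A3 lost its call without either DMSO library at D1 and in the edgeR fit of the D1 libraries alone (adjusted p = 0.0536). SLC2A3 lost its call in 5 of the 8 leave-one-out fits. SLC16A12, a creatine transporter, rose from 4.13 and 3.63 to 9.59 and 8.67 CPM (1.24 ± 0.12, edgeR adjusted p = 1.81e-06).

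The D2 libraries share no sample with D1, and there 500 genes were called with TCDD (2.9%), 241 higher (1.4%) and 259 lower (1.5%). Of the 127 genes raised at D1, 50 were also called higher at D2 and 2 lower. Of the 70 lowered genes, 16 were called lower and 5 higher. Of the 26 rises of at least 2-fold, 16 were called higher at D2. Of the 7 raised lncRNAs, 4 were called higher at D2 (LINC00886, LOC101927248, TIPARP-AS1 and SOX21-AS1) and all 7 had a positive log2 fold change. LINC00458 was lower at both times, with log2 fold changes of -0.24 and -0.37.

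The effect itself differed between the times for 20 of the 127 raised and 28 of the 70 lowered genes (difference of effects, edgeR adjusted p under 0.05), against 0.822% of all genes. These genes were chosen by their D1 effect, which is part of that difference, so nothing is read from these counts. CYP26A1 and GAL were the 2 genes raised at D1 and lower at D2, with log2 fold changes of 0.54 and -0.44 for CYP26A1 and 0.38 and -0.45 for GAL. LHX1 was raised at D1 (1.87) and had a log2 fold change of -0.77 at D2 (difference, edgeR adjusted p = 0.0182). PEG13 was lowered at D1 and had 0.19 at D2 (difference, edgeR adjusted p = 0.0286). Differentiation medium, time and any batch between D1 and D2 cannot be told apart in this comparison.

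**Figure D5:**
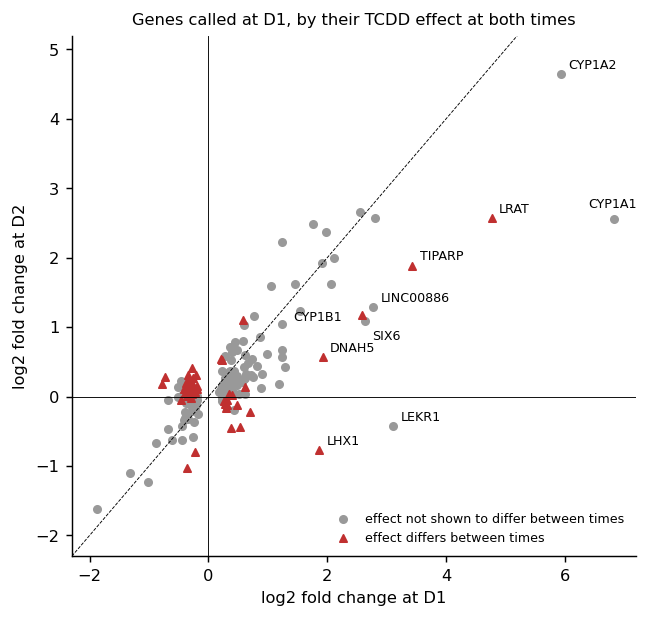
Log2 fold change with TCDD at D2 (y axis) against D1 (x axis) for the 197 genes called at D1, with equal effects on the dashed line. Triangles mark genes whose effect differed between the times, including LRAT, TIPARP, CYP1B1, DNAH5 and LHX1. MYADML2, APELA and LHX4 are among the circles near the line.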

How the data were processed

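The deposited tables held the authors' raw counts of reads per gene symbol, with no normalization, as the whole-number values show. The submitters' processing notes name cutadapt 1.9.1, STAR, featureCounts 1.5.1 and the build hg19. Annotation, strand use, the version of STAR and the handling of reads matching more than 1 gene were not given in the sources used here. Groups came from the sample titles, with 2 libraries each. The fits used edgeR 4.0.16 (R 4.3.3, limma 3.58.1), with DESeq2 1.42.0 as an alternative. The filterByExpr function set the filter on low counts and left 17268 of 27317 symbols, and 4199 symbols had no count. All 8 libraries, scaled by TMM factors (0.958 to 1.04), were fitted together by edgeR's quasi-likelihood method, with group means and a robust spread prior (common biological coefficient of variation 3.86%). The robust prior was chosen after seeing the data, to follow an earlier processing of these files. F tests were two-sided, p-values were adjusted by Benjamini-Hochberg across the 17268 genes, and standard errors were derived from the F statistic. With the robust prior the degrees of freedom differ between genes. A change that is large against its standard error, as for MIAT and APELA, can thus have an adjusted p near the threshold. Code was tested on simulated data. Replicates differed by more than sampling noise (chi-square per gene 3.86 for DMSO and 6.59 for TCDD at D1).

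The comparison, the gene lists and the marker lists were chosen with earlier results of these data known. Genes were named by rule: the 20 largest rises and falls among called protein-coding genes of at least 1 CPM whose groups did not overlap, the 12 largest among non-coding genes, the 8 largest under 1 CPM, up to 4 called members of each list with at least 2, and CYP1A1, CYP1B1, TIPARP, AHRR, LRAT, AHR, ARNT, POU5F1, NANOG and SOX2. Members of small counts and neighbours of raised genes were named after their values were seen. Gene types, chromosome order and spans came from RefSeq on GRCh38.p14, matched by symbol, synonym or gene ID, which left 138 symbols unclassified. That build differs from hg19, so only order, overlap and span were used. Of the 26 genes raised by at least 2-fold, 21 had a promoter in the RefSeq table. Alternatives were RLE size factors, no composition scaling, no filter beyond 1 count, a minimum of 20 counts over the 4 D1 libraries, DESeq2, the D1 libraries alone, the replicate number as a block, a fit without the robust prior, and each library left out in turn.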

Additional observations from a re-analysis of the deposited data

Results flagged for a closer look

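Of the genes named by the rule, 20 had a TCDD effect that differed between D2 and D1 by the test of the difference (edgeR adjusted p under 0.05). The genes were chosen by their D1 effect, which is part of that difference. Values in parentheses are the log2 effect at D2 minus that at D1. The effect was lower at D2 for LHX1 (-2.64), LRAT (-2.20), TIPARP (-1.55), CYP1B1 (-1.41), DNAH5 (-1.35) and CYP26A1 (-0.97), and for ABCG2 (-0.94), GAL (-0.83), CYP11A1 (-0.60), EGLN1 (-0.37), BNIP3 (-0.36) and SPRED1 (-0.30). It was higher at D2 for COL1A1 (0.34), TERF1 (0.34), LPIN1 (0.41), PREX2 (0.43), FILIP1 (0.51), PRDM14 (0.69), PEG13 (0.96) and PROX1 (1.01). LHX1, a mesoderm regulator, had log2 fold changes of 1.87 at D1 and -0.77 at D2. PEG13 had -0.78 and 0.19, PROX1 -0.73 and 0.28, and COL1A1 0.20 and 0.54. The D1 calls of LHX1, PROX1 and COL1A1 were lost in some leave-one-out fits, as given above. Because of how the genes were chosen, nothing is read from these differences.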

How the results depend on the processing

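No call at D1 changed sign under any alternative. With no filter beyond 1 count, 480 genes were called instead of 197 (229 higher and 251 lower), 16 non-coding genes instead of 9, 15 low-expressed genes instead of 4 and 433 differences between the times instead of 142. Of the 283 calls that fit added, 1 lay below the filter of the reported fit, and the others were genes tested in both fits. The cause of the further calls was not tested. DESeq2 called 2 low-expressed genes, and the fit of the 4 D1 libraries alone called 41 falls instead of 70 with fewer residual degrees of freedom. Leaving out each library in turn gave 78 to 246 calls, 66 to 154 rises, 12 to 156 falls, 21 to 25 rises of at least 2-fold, 7 to 11 non-coding calls, 1 to 5 low-expressed calls and 49 to 269 differences between the times. The lowest counts of calls, rises and falls came without DMSO replicate 1 of D1, and the highest counts of calls and of falls without TCDD replicate 1 of D1. A lone library was then assumed to vary like the other groups. With the replicate number as a block, 205 genes were called, 128 higher and 77 lower, of which 190 were shared with the 197, and of the genes named by the rule MIAT, FAM120AOS, TERF1 and SALL3 lost their calls (edgeR adjusted p = 0.0553 to 0.0635). Deviations of same-numbered libraries correlated at 0.21 between DMSO and TCDD at D1, at 0.13 at D2, and at -0.17 to 0.01 across times. The labels do not say that a number marks a shared batch, and whether it does was not tested further. Without the robust prior, an alternative added after seeing the data, 207 genes were called, of which 190 were shared with the 197. Of the genes named by the rule, SOX4, TERF1 and PROX1 then lost their calls (edgeR adjusted p = 0.052 to 0.0582). Of 81 called genes named by the rule, 36 kept their call in all 8 leave-one-out fits and under all 8 other settings that gave a value. RLE size factors, no composition scaling, the 20-count minimum and DESeq2 gave 169 to 211 calls. With 2 libraries a group and few counts, small changes under 1 CPM were not detectable.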

Other observations

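Further called genes lay outside the naming rule, and those named here were chosen after their values were seen. EXOC2, an exocyst subunit, rose from 119 and 115 to 166 and 160.2 CPM, with a fitted log2 change of 0.48 ± 0.05 (edgeR adjusted p = 2.62e-06). PDP1, the phosphatase that activates pyruvate dehydrogenase, rose from 25 and 25 to 39 and 35.4 CPM (0.58 ± 0.06, edgeR adjusted p = 1.14e-05). For each, both TCDD libraries exceeded both DMSO libraries, and the calls held in all 8 leave-one-out fits. PDP1 rose while PDK1, a kinase that inactivates the same enzyme, rose as well (0.27, edgeR adjusted p = 0.016, a call lost without DMSO replicate 2 or TCDD replicate 1, with edgeR adjusted p = 0.146 to 0.195).

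Among the falls, VIM, the intermediate filament vimentin, went from 75.5 and 69.2 to 56.1 and 56.5 CPM (-0.36 ± 0.05, edgeR adjusted p = 0.000609), a call lost without DMSO replicate 1 (edgeR adjusted p = 0.0517). The endothelial growth factor receptor genes KDR and FLT1 fell by 0.29 and 0.22 (edgeR adjusted p = 0.0125 and 0.0089). KDR lost its call without DMSO replicate 1 or TCDD replicate 2 (edgeR adjusted p = 0.101 to 0.381), and FLT1 without either DMSO library (0.0793 to 0.0803). ETS1, a transcription factor and the 1 called gene of 9 tested neural crest markers, fell from 34.6 and 33.8 to 26.3 and 26.9 CPM (-0.36 ± 0.06, edgeR adjusted p = 0.00108) in all 8 fits.

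Lowered genes had long genomic spans, with a median of 60.1 kb in RefSeq on GRCh38.p14 against 29.9 kb for raised genes and 27.7 kb for all genes tested. Split by span into 4 groups of equal size, all tested genes had median log2 fold changes with TCDD of 0.03, 0.01, -0.01 and -0.03 from the shortest to the longest. The difference between the 2 DMSO libraries, which carry no treatment, had medians of 0.02, 0.00, -0.01 and -0.03 over the same groups. The difference between the 2 TCDD libraries had medians of -0.01, 0.00, 0.01 and -0.03. The part of this trend in the falls was not tested.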
